A study of Homo sapiens with 12 samples.

Results

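OGFR, MCRIP2, AUP1 and HIP1R are 4 protein-coding genes that the study followed up after changing the level of snaR-A, a short noncoding RNA. The study linked them to intron retention and followed them by junction PCR of splicing, immunoblot of protein or both. For HIP1R it shows an immunoblot. They were taken by gene name from a table of 63541 gene IDs, each matched 1 row, and all 4 were among the 21999 genes that passed the filter on low counts. RNA came from HEK293T, a transformed human embryonic kidney cell line grown in DMEM with serum, collected 48 h after transfection of 12.5 nM siRNA with Lipofectamine RNAiMAX. There were 4 groups of 3 libraries: a scramble control siRNA and 3 siRNAs against snaR-A, named si-snaR-A#1 to si-snaR-A#3 and written #1, #2 and #3 from here on. The control cells therefore also carried a transfected siRNA, all cells came from 1 line, and libraries were made from poly(A)+ RNA after removal of rRNA. By the study's methods the 3 libraries of a group are biological replicates handled on 1 day. No source used here says how the cultures were split, and p-values measure the spread between these libraries. The values are estimated counts per gene, from reads mapped to a transcriptome. They do not separate spliced from intron-retaining RNA, so intron retention itself was not measured here. How far reads inside introns entered the counts is not known.

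An intron is removed when the spliceosome recognises its ends, a GT at the start and an AG after a pyrimidine-rich stretch at the finish. The U2 snRNP binds the branch point upstream of that AG. An intron that stays in a polyadenylated RNA often holds the molecule in the nucleus or brings a premature stop codon, and short introns rich in G and C are known to be retained more readily than long AT-rich ones. OGFR encodes the opioid growth factor receptor, a nuclear envelope receptor for met-enkephalin that restrains cell division. MCRIP2 encodes a small protein that binds the RNA helicase DDX6 and enters stress granules. AUP1 encodes a membrane protein of the endoplasmic reticulum and lipid droplets that recruits the ubiquitin-conjugating enzyme UBE2G2 to degrade misfolded proteins. HIP1R encodes an actin- and clathrin-binding protein of coated pits, related to HIP1.

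The genes differ in where and how densely introns interrupt them, as annotated by GENCODE release 44 on GRCh38. OGFR lies on the plus strand of chromosome 20 (62804835 to 62814000) with 7 exons and introns between 619 and 2506 bases. MCRIP2 lies on the plus strand of chromosome 16 (636817 to 648474) with 5 exons and introns of 76, 5167, 238 and 235 bases. AUP1 lies on the minus strand of chromosome 2 (74526645 to 74529760) with 12 exons and introns between 79 and 261 bases. HIP1R lies on the plus strand of chromosome 12 (122834453 to 122862961) with 32 exons, introns between 70 and 12387 bases and a median intron of 191 bases. Of their 52 introns, 26 were shorter than 200 bases (50%): 9 of 11 in AUP1, 16 of 31 in HIP1R, 1 of 4 in MCRIP2 and 0 of 6 in OGFR. That share was 12.3% over the 161215 introns in the canonical transcripts of 14689 tested protein-coding genes. The median intron held 64.7% G and C in the 4 genes together and 43.5% in that background. By gene it held 54.2% in AUP1, 66.5% in HIP1R, 67.0% in MCRIP2 and 63.9% in OGFR. In 12 of the 52 introns (23.1%) the whole intron lay inside an exon of another annotated transcript of the gene, against 7.0% of all introns: 6 of 11 in AUP1, 3 of 31 in HIP1R, 2 of 4 in MCRIP2 and 1 of 6 in OGFR. These shares describe an annotation made elsewhere and were not tested.

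**Figure D1:**
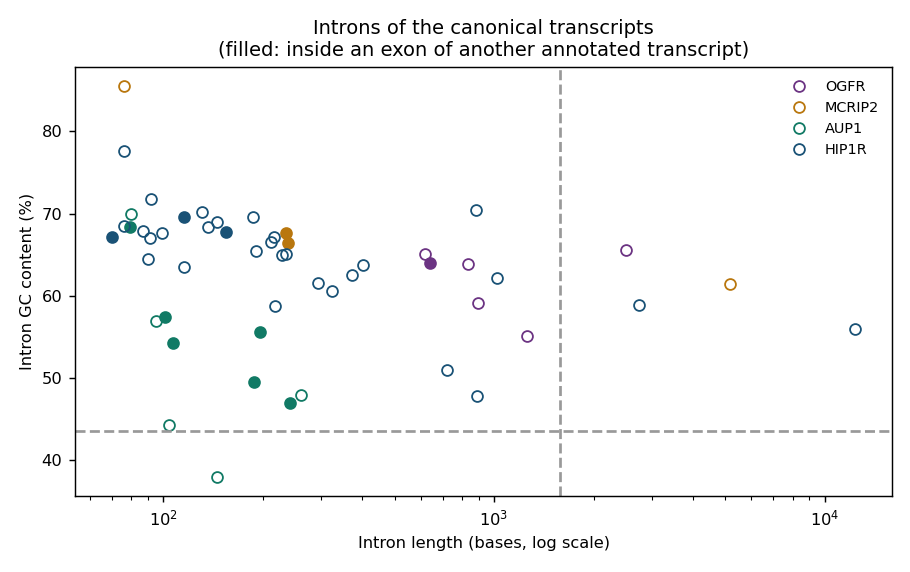
Length in bases on a log axis against GC content in percent for the 52 introns of the canonical transcripts, with a colour for each gene. Filled points are the 12 introns that lie whole inside an exon of another annotated transcript, and dashed lines mark the medians over all 161215 introns (1583 bases and 43.5%). Most points sit in the upper left, shorter and richer in G and C than those medians.

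The ends of 9 introns are shown. Among them are those the study lists primers across (OGFR between exons 2 and 3, MCRIP2 between exons 3 and 4 and exons 4 and 5). Added are the AUP1 and HIP1R introns that sit inside an exon of at least 2 other transcripts or are the shortest of their gene. The rest are the only one of the 52 without a GT start and the one with the fewest pyrimidines before its end. Each sequence was read from GRCh38 on the gene's strand, with exon and intron numbers along the canonical transcript. The 5′ line gives 3 exon bases and 6 intron bases, and the 3′ line gives 20 intron bases and 3 exon bases. Capitals mark the dinucleotides at the intron's ends.
OGFR intron 2, chr20:62807606-62808246, plus strand, 5′ end: ccgGTacgt
OGFR intron 2, 3′ end: ccctttctctggctcttcAGgat
MCRIP2 intron 3, chr16:647545-647782, plus strand, 5′ end: aagGTagcg
MCRIP2 intron 3, 3′ end: cgactgccctcctcccacAGcct
MCRIP2 intron 4, chr16:647885-648119, plus strand, 5′ end: agaGTgagc
MCRIP2 intron 4, 3′ end: ccagccttctctgcccacAGact
AUP1 intron 2, chr2:74529283-74529361, minus strand, 5′ end: cagGTtccg
AUP1 intron 2, 3′ end: accacctcctgtgtccccAGatt
AUP1 intron 3, chr2:74528936-74529131, minus strand, 5′ end: accGTgagt
AUP1 intron 3, 3′ end: tctcttctcctggttcccAGcct
AUP1 intron 7, chr2:74527839-74527939, minus strand, 5′ end: cagGTggtc
AUP1 intron 7, 3′ end: agtcttccaattctccctAGctg
HIP1R intron 25, chr12:122860078-122860147, plus strand, 5′ end: aagGTgagg
HIP1R intron 25, 3′ end: tgctgtcttggtctcggcAGgct
HIP1R intron 1, chr12:122835644-122848030, plus strand, 5′ end: cagGCgagc
HIP1R intron 1, 3′ end: tgctcctttgtccctcacAGgcc
HIP1R intron 30, chr12:122861193-122861307, plus strand, 5′ end: cagGTaggc
HIP1R intron 30, 3′ end: agcaggccgtgtggctacAGgtg

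Of the 17 intron bases that precede the last 3 of each intron, 15 were pyrimidines (C or T) in OGFR intron 2 and 13 in each of MCRIP2 introns 3 and 4. HIP1R intron 30 had 7, the fewest of the 52. HIP1R intron 1 began with GC, a minor form found in 0.77% of all introns, and the other 51 introns of the 4 genes ran from GT to AG. The 3 introns with listed primers were 641 bases with 64.0% G and C in OGFR, and 238 bases with 66.4% and 235 bases with 67.7% in MCRIP2. The study also names AUP1 among its junction PCR results, but its primer list does not include that gene. No annotated transcript of OGFR is of the retained-intron class, but a protein-coding one contains intron 2 within an exon. MCRIP2 has 3 retained-intron transcripts of 11, AUP1 has 6 of 8 and HIP1R has 7 of 10.

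Library totals ranged from 120.4 to 180.1 M counts, and the 4 genes had between 789 counts (MCRIP2) and 12331 counts (AUP1) in a library. Libraries of #1 stood apart from the other 9: on the first principal component of log2 CPM, which held 37.8% of the variance, they lay between 36.7 and 44.7, and the other 9 between -17.5 and -7.09. The cell-line genes VIM, LIN28B, CDH2, KRT18, KRT8 and PAX2 were present in every library (4.43 CPM or more). Of the kidney segment markers, UMOD and AQP2 were at 0 in all 12, and SLC12A1 and SLC34A1 reached at most 0.029 CPM. The kidney epithelial genes were mixed: PAX8 reached at most 0.101 CPM, CDH1 was at 6.32 to 11.1 CPM and EPCAM at 1.76 to 2.31 CPM. CDH1 was lower than in scramble with all 3 siRNAs (-0.76, -0.45 and -0.27, edgeR adjusted p = 8.2e-07, 1.9e-04 and 0.00668), as were 2.84% of all genes. LRP2, a receptor of the proximal tubule, was present at 19.8 to 48.6 CPM and differed between the groups, at 0.62 ± 0.10 on the log2 scale with #1 (edgeR adjusted p = 2.1e-04) and -0.33 ± 0.10 with #2 (adjusted p = 0.029) against scramble. No row was matched by name to a snaR-A gene, so the knockdown was not checked here.

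OGFR gave the widest separation. Its level was 26.4, 25.2 and 24.97 CPM in the scramble libraries, 53.4, 53.0 and 54.9 CPM with #1, 45.1, 46.0 and 44.3 CPM with #2, and 39.0, 41.6 and 42.4 CPM with #3. The libraries of each siRNA against snaR-A all lay above the 3 scramble libraries, as for 25.6%, 21.3% and 22% of all genes with #1, #2 and #3. No library of one siRNA overlapped another siRNA's range, and the share of all genes with that full separation is not given here. Against scramble the log2 fold change was 1.08 ± 0.04 (SE, n = 3 libraries a group) with #1, 0.82 ± 0.04 with #2 and 0.68 ± 0.04 with #3, which is a level 2.11, 1.77 and 1.61 times that in scramble. The 4 genes were chosen with the comparison of siRNA and scramble known, so these values are descriptions and carry no test.

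MCRIP2, the least abundant of the 4 genes, moved the same way. Its level was 7.77, 6.37 and 6.95 CPM in scramble, 13.1, 13.6 and 14.9 CPM with #1, 11.01, 10.03 and 10.2 CPM with #2, and 10.2, 10.2 and 10.2 CPM with #3. All libraries of each siRNA lay above all of scramble, as for 25.6%, 21.3% and 22% of all genes with #1, #2 and #3. The #1 libraries lay above all 6 libraries of the other siRNAs, as for 21% of all genes, and #2 and #3 overlapped. The log2 fold change against scramble was 0.98 ± 0.08 with #1, 0.56 ± 0.08 with #2 and 0.53 ± 0.08 with #3.

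AUP1 was the most abundant of the 4, and its difference from scramble was larger with #1 than with #2 and #3. Scramble libraries held 66.8, 63.6 and 66.3 CPM, #1 libraries 81.1, 77.0 and 81.3 CPM, #2 libraries 71.3, 67.0 and 68.3 CPM, and #3 libraries 69.4, 67.8 and 74.3 CPM. The #1 libraries lay above all of scramble, as for 25.6% of all genes, and above all 6 of the other siRNAs, as for 21%. With #2 the lowest library, 67.0 CPM, was just above the highest scramble library, 66.8 CPM. The log2 fold change against scramble was 0.28 ± 0.04 with #1, 0.07 ± 0.04 with #2 and 0.10 ± 0.04 with #3.

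HIP1R stood clear of the scramble libraries with #1 but not with #2 or #3. Its level was 27.2, 24.2 and 24.3 CPM in scramble, 34.4, 31.4 and 36.6 CPM with #1, 25.1, 25.1 and 24.7 CPM with #2, and 26.6, 26.3 and 30.6 CPM with #3. The ranges of #2 and #3 both overlapped that of scramble. The log2 fold change against scramble was 0.43 ± 0.07 with #1, -0.02 ± 0.07 with #2 and 0.14 ± 0.07 with #3.

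**Figure D2:**
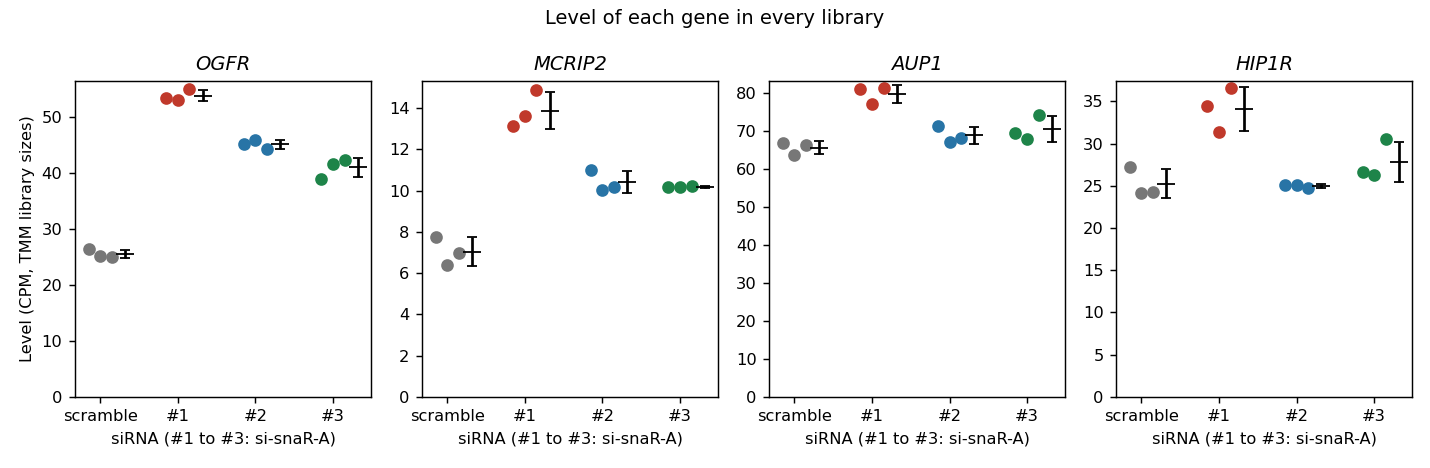
Level in CPM, from TMM library sizes, of each gene in the 12 libraries, 1 point a library, with the group mean and SD (n = 3) as black bars beside the points. OGFR and MCRIP2 sit above scramble with all 3 siRNAs, and AUP1 and HIP1R stand clear of scramble by more than the spread of the libraries with #1.

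Across all tested genes many transcripts differed between the siRNAs against snaR-A and scramble, which is the setting in which these values stand. The study, which also set a minimum size of change, reports relatively few transcripts raised or lowered. The shares given next set no such minimum. All libraries of the siRNA lay above all of scramble for 25.6% of genes with #1, 21.3% with #2 and 22% with #3. Of all genes, 724 had a larger log2 fold change than OGFR with #1, 324 with #2 and 492 with #3. For MCRIP2 these numbers were 904, 755 and 900, for AUP1 5422, 7602 and 6926, and for HIP1R 3627, 10541 and 5919. The median log2 fold change over the 4 genes was 0.71, 0.32 and 0.34 with #1, #2 and #3, beside -0.02, -0.03 and -0.03 over all genes.

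Per kilobase of exon, the scramble levels were ordered AUP1 at 26.7 ± 0.70 CPM per kb (SD, n = 3), OGFR at 5.43 ± 0.17, HIP1R at 3.57 ± 0.24 and MCRIP2 at 1.40 ± 0.14. This scale divides by all annotated exon bases of the gene. Dividing by the longest annotated transcript instead gave OGFR 5.66 ± 0.18 and HIP1R 5.60 ± 0.38 CPM per kb, which do not differ beyond their spread, while AUP1 stayed first at 39.5 ± 1.03 and MCRIP2 last at 3.05 ± 0.30.

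The siRNAs were then compared with each other, a comparison other than the one the genes were chosen on, although results of these libraries were known at that point. All 4 genes were higher with #1 than with each of the other siRNAs. Against #2 the log2 difference was 0.25 ± 0.04 for OGFR (edgeR quasi-likelihood test, Benjamini-Hochberg adjusted p = 2.1e-04), 0.42 ± 0.08 for MCRIP2 (adjusted p = 6.6e-04), 0.21 ± 0.04 for AUP1 (adjusted p = 0.00128) and 0.45 ± 0.07 for HIP1R (adjusted p = 1.7e-04). Against #3 it was 0.39 ± 0.04 for OGFR (edgeR adjusted p = 4.6e-06), 0.45 ± 0.08 for MCRIP2 (adjusted p = 3.7e-04), 0.18 ± 0.04 for AUP1 (adjusted p = 0.00401) and 0.29 ± 0.07 for HIP1R (adjusted p = 0.00375). Over all genes, 23.7% passed the same test as higher with #1 than with #2, 23.8% as higher than with #3, and 17.6% in both comparisons. The #1 libraries lay above all 6 libraries of the other siRNAs for each of the 4 genes and for 21% of all genes.

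Those differences moved with base composition. With #1, genes rich in G and C were higher and genes poor in them lower than with the other siRNAs. Over 12225 tested protein-coding genes with introns whose mean reached 1 CPM, the median log2 difference from #2 was -0.26 in the decile of genes with the lowest exon GC content (31.0% to 38.5%) and 0.24 in the highest decile (60.8% to 75.6%). Against #3 these medians were -0.27 and 0.19. In the highest decile, 51.3% of genes passed the test as higher than with #2 and 46.4% as higher than with #3. The exons of OGFR hold 64.0% G and C and those of MCRIP2 64.4%, inside that decile, while those of HIP1R hold 60.1% and those of AUP1 56.3%.

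**Figure D3:**
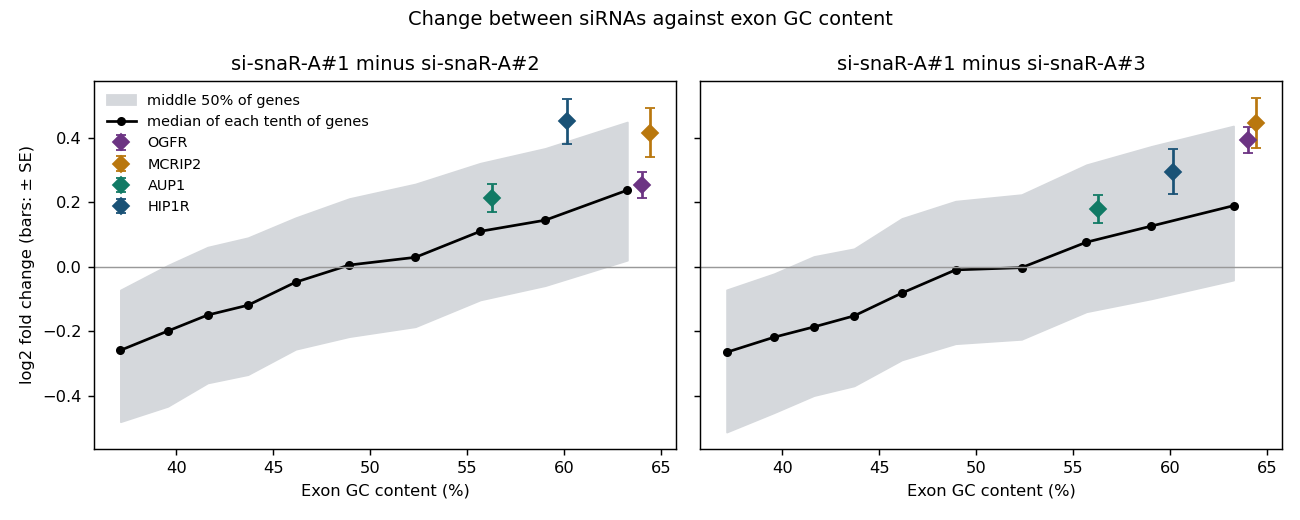
Log2 fold change between siRNAs against exon GC content in percent, with the median (black line) and the middle 50% (grey band) of the genes in each decile by GC content, and the 4 genes as diamonds with their SE. The medians climb from below 0 to above 0 with GC content in both comparisons, and MCRIP2 and OGFR sit at the GC-rich end.

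With a smooth trend on exon GC content taken out of each library, an alternative chosen after seeing the data, 6 of these 8 differences no longer passed the test and 1 of them changed sign. Against #2, OGFR was then at -0.04 ± 0.03 (edgeR adjusted p = 0.405), MCRIP2 at 0.12 ± 0.07 (adjusted p = 0.219) and AUP1 at 0.05 ± 0.04 (adjusted p = 0.30), while HIP1R kept 0.23 ± 0.06 (adjusted p = 0.00691). Against #3, OGFR kept 0.14 ± 0.03 (edgeR adjusted p = 0.00647), and MCRIP2 was at 0.18 ± 0.07 (adjusted p = 0.0551), AUP1 at 0.02 ± 0.04 (adjusted p = 0.692) and HIP1R at 0.09 ± 0.06 (adjusted p = 0.236). The share of all genes called higher hardly moved, at 21.2% and 21.8%. The same step left the levels of OGFR and MCRIP2 above scramble with every siRNA and brought the siRNAs closer to each other: 0.88, 0.92 and 0.75 for OGFR and 0.78, 0.66 and 0.60 for MCRIP2 with #1, #2 and #3. AUP1 then also stood above scramble with every siRNA, at 0.19, 0.14 and 0.17 (SE 0.04 each), where #2 and #3 were nearer to #1 than before. HIP1R was at 0.30, 0.07 and 0.21 (SE 0.06 each), closest to scramble with #2. What sets the trend in the #1 libraries was not tested.

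The other 2 siRNAs differed from each other in OGFR alone by the test. OGFR was 0.14 ± 0.04 higher on the log2 scale with #2 than with #3 (edgeR adjusted p = 0.0355), a call made for 6.52% of all genes in that direction and lost when any library of #2, replicate 1 or 2 of #3 or scramble replicate 2 was left out (0.10 to 0.15, adjusted p between 0.0517 and 0.131). It was also lost with no filter on low counts (adjusted p = 0.0824) and with the replicate number as a block (adjusted p = 0.0628). With the GC trend removed it was 0.17 ± 0.04 (edgeR adjusted p = 0.0051), and 6.64% of all genes passed in that direction. The difference was 0.03 for MCRIP2 (95% interval -0.14 to 0.20, edgeR adjusted p = 0.846), -0.03 for AUP1 (interval -0.13 to 0.06, adjusted p = 0.671) and -0.16 for HIP1R (interval -0.31 to -0.0027, adjusted p = 0.171), whose 3 #2 libraries all lay below the 3 of #3, as 19.2% of all genes did. These intervals are for 1 gene each, without adjustment.

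**Figure D4:**
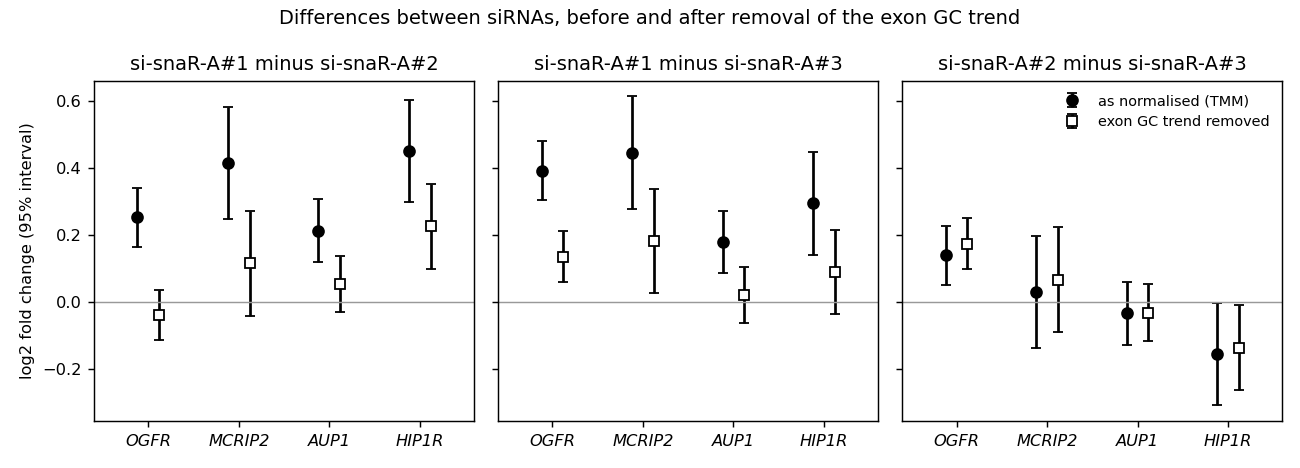
Log2 fold change between each pair of siRNAs with its 95% interval for the 4 genes, as normalised by TMM (filled circles) and with the exon GC trend removed (open squares). In the first and second panels the open squares lie nearer 0 than the circles for every gene.

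Each gene's profile over the 12 libraries was set against those of 14529 genes whose mean reached 1 CPM. The profile most like that of OGFR was ADAM15, a membrane metalloprotease (Pearson r = 0.990 over 12 libraries), then PCNX3 (r = 0.985) and PRMT6, an arginine methyltransferase (r = 0.982). For MCRIP2 these were PHF10, a subunit of a chromatin remodelling complex (r = 0.980), ADCY3, an adenylyl cyclase (r = 0.973), and MAP3K4, a stress kinase (r = 0.972). For AUP1 they were DDX56, a nucleolar RNA helicase (r = 0.981), TNFRSF12A, the receptor of TWEAK (r = 0.969), and ZFTA (r = 0.967). For HIP1R they were ENSG00000274287, an ID outside GENCODE release 44 (r = 0.967), TBKBP1 (r = 0.961) and RSAD1 (r = 0.958). Among the 4 genes, r was highest for OGFR with MCRIP2 (0.961) and AUP1 with HIP1R (0.938) and lowest for OGFR with HIP1R (0.630). By Spearman correlation the closest pair was instead MCRIP2 with AUP1 (0.986), with 0.846 for OGFR with MCRIP2 and for AUP1 with HIP1R. The 12 libraries share groups and base-composition differences, so these correlations describe the libraries and were not tested.

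Of 18 genes of the met-enkephalin axis, the opioid receptors, nuclear import and the CDK inhibitors, 14 were tested, and against scramble 1 rose and 6 fell with #1, 2 rose and 3 fell with #2, and 5 rose and 1 fell with #3, which left 7, 9 and 8 without a call. Over all genes 21.9% rose and 23.3% fell with #1, 13.7% and 12.1% with #2, and 16.5% and 13% with #3. No gene of the list was called in the same direction with all 3. PENK, the precursor of met-enkephalin, was at 0.0065 CPM or less in every library. OGFRL1, the paralog of OGFR, fell by 0.46 on the log2 scale with #1 (edgeR adjusted p = 3.9e-06; -0.24 with the GC trend removed) and rose by 0.15 with #2 (adjusted p = 0.0309) and 0.26 with #3 (adjusted p = 9.3e-04). The call with #2 was lost without scramble replicate 1 or 3 or any library of #2 (0.13 to 0.16).

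Among 21 tested genes of the DDX6 and stress granule list for MCRIP2, 8 rose and 6 fell with #1, 4 rose and 4 fell with #2, and 8 rose and 3 fell with #3. Of all genes, 21.9% rose and 23.3% fell with #1, 13.7% and 12.1% with #2, and 16.5% and 13% with #3. Called as higher with all 3 siRNAs, as 5.16% of all genes were, were 3 genes: G3BP2, which nucleates stress granules, EDC3, a decapping enhancer (0.42, 0.36 and 0.47), and PATL1, which bridges deadenylation and decapping (0.11, 0.35 and 0.37), whose call with #1 was lost with no filter on low counts. LSM14B fell with all 3 (-0.30, -0.33 and -1.01), as did 2.84% of all genes and TIA1, a stress granule RNA-binding protein (-0.60, -0.21 and -0.20), which was at -0.37 with #1 once the GC trend was removed. DDX6 itself, named after its values were seen because MCRIP2 binds it, went from 285.6 ± 6.09 CPM in scramble to 139.4 ± 6.28 CPM with #1, a log2 change of -1.03 ± 0.05 (edgeR adjusted p = 9.2e-09). With the other siRNAs the change in DDX6 was -0.14 (edgeR adjusted p = 0.0606) and -0.06 (adjusted p = 0.429), and the test between #1 and #2 gave -0.90 ± 0.05 (adjusted p = 2.5e-08). With the GC trend removed the change was -0.92 with #1, and that with #2 passed the test at -0.15 (edgeR adjusted p = 0.0194). MCRIP1, the paralog of MCRIP2, was not analysed here.

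Of 24 genes of ER-associated degradation and lipid droplets listed for AUP1, 3 rose and 13 fell with #1, 5 rose and 2 fell with #2, and 10 rose and 4 fell with #3. The shares over all genes were 21.9% and 23.3% with #1, 13.7% and 12.1% with #2, and 16.5% and 13% with #3. EDEM1, a lectin that hands misfolded glycoproteins to degradation, was the single gene called in 1 direction with all 3, against 2.84% of all genes called lower (-0.23, -0.61 and -0.41). UBE2G2, the enzyme that AUP1 recruits and also named after its values were seen, rose by 0.36 ± 0.05 with #1 (edgeR adjusted p = 4.9e-05) and was at 0.02 and 0.01 with the others (adjusted p = 0.814 and 0.912), and it stayed at 0.40 with #1 once the GC trend was removed.

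Of 25 tested genes of clathrin-mediated endocytosis listed for HIP1R, 9 rose and 3 fell with #1, 9 rose and 1 fell with #2, and 10 rose and 3 fell with #3. Across all genes these shares were 21.9% and 23.3% with #1, 13.7% and 12.1% with #2, and 16.5% and 13% with #3. The list's median log2 fold change was 0.09, 0.03 and 0.10, beside -0.02, -0.03 and -0.03 over all genes. Higher with all 3 siRNAs were 4 of the 25 genes, beside 5.16% of all genes, the largest in the adaptor subunit AP2A1 (0.43, 0.52 and 0.45), then the clathrin light chain CLTB (0.16, 0.25 and 0.34) and the adaptor EPN1 (0.17, 0.33 and 0.20). The calls of CLTB and EPN1 with #1 were lost with the GC trend removed (0.0088 and 0.12). That of CLTB was also lost without scramble replicate 1 or replicate 1 or 2 of #1 (0.13 to 0.14), and that of EPN1 without scramble replicate 1 or 2, replicate 1 or 2 of #1, any library of #2 or replicate 2 of #3 (0.14 to 0.17). With #3, EPN1 was not called without scramble replicate 1 or 2 or replicate 2 or 3 of #3 (0.16 to 0.19). HIP1, the paralog of HIP1R, was at 0.03, -0.05 and 0.12 (edgeR adjusted p = 0.751, 0.683 and 0.253).

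The other 9 transcripts that the study followed up by junction PCR or immunoblot did not share a direction. With #1 3 rose and 2 fell, with #2 2 rose and 3 fell, and with #3 3 rose and 3 fell. Among all genes 21.9% rose and 23.3% fell with #1, 13.7% and 12.1% with #2, and 16.5% and 13% with #3. G3BP2 was the highest of all 13, at 1.16, 1.69 and 1.68. Unlike OGFR in the fit without trend removal, it was lower with #1 than with #2 (-0.53 ± 0.04, edgeR adjusted p = 4.7e-07). With the GC trend removed this difference was -0.39 in G3BP2 and -0.04 in OGFR. MTA1, a subunit of a histone deacetylase complex, rose with all 3 (0.23, 0.29 and 0.23), though the call with #1 was lost at 0.02 with the GC trend removed. MUS81, a nuclease of branched DNA, fell with all 3 (-0.21, -0.40 and -0.35). TTC31 fell with #1 and #2 (-0.64 and -0.34) and was at -0.24 with #3. DMKN fell with #2 (-0.25), and PAN2 and AP1G2 fell with #3 (-0.39 and -0.57). TRABD rose with #1 and #3 (0.17 and 0.19), the first of these lost at -0.04 with the GC trend removed, and TIMELESS stayed between -0.10 and 0.06 with no call in the fit without trend removal. Several calls hung on single libraries. MUS81 with #1 was not called without scramble replicate 1 or 3, any library of #1, replicate 3 of #2 or replicate 2 of #3 (-0.23 to -0.15). PAN2 with #3 was not called without scramble replicate 1 or 2, replicate 2 of #1, replicate 1 of #2 or replicate 1 or 2 of #3 (-0.42 to -0.29) or with the GC trend removed (-0.34, edgeR adjusted p = 0.0565), and AP1G2 with #3 without scramble replicate 1 or replicate 1 or 2 of #3 (-0.53 to -0.45). TRABD was not called without scramble replicate 1 or 2 or replicate 3 of the siRNA in question (0.13 to 0.18 with #1 and 0.12 to 0.21 with #3), and TTC31 with #2 not without scramble replicate 1 (-0.24). Removing the GC trend also brought calls in DMKN with #1 (-0.19), TIMELESS with #2 (0.11) and TRABD with #2 (0.20), and put MUS81 with #1 at -0.33. These genes were also chosen by the study on this experiment, and their counts are not independent evidence of a direction.

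**Figure D5:**
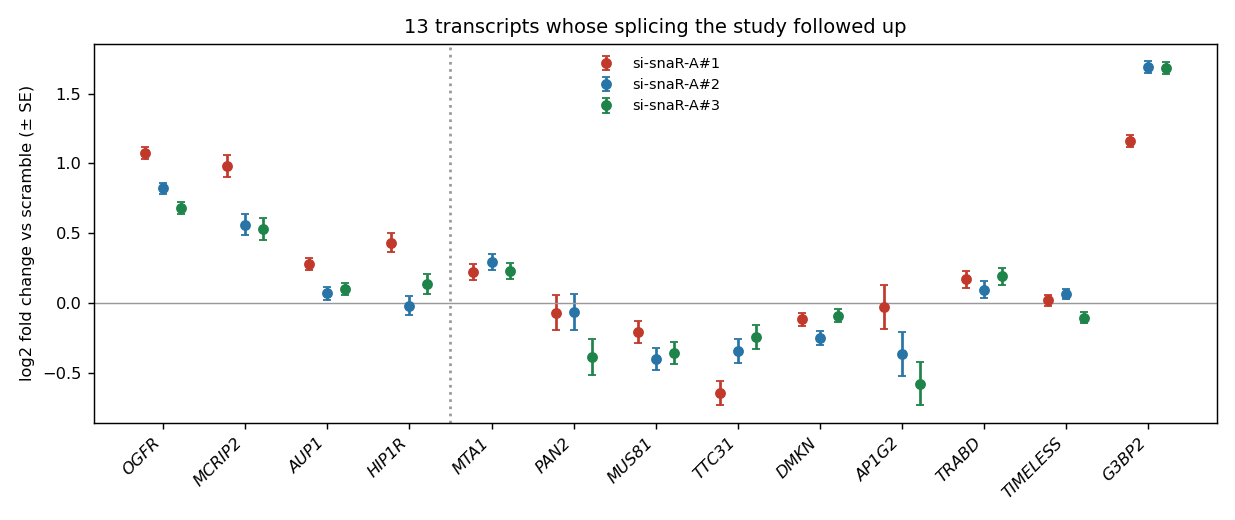
Log2 fold change against scramble, with its SE, for the 13 transcripts that the study followed up by junction PCR or immunoblot. Each siRNA has 1 colour, and the 4 genes described here are left of the dotted line. Changes run from -0.64 (TTC31) to 1.69 (G3BP2), and with each siRNA the highest values are those of G3BP2, OGFR and MCRIP2.

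Genes beside the 4 on their chromosomes were read because their transcripts can share reads. HTRA2, a mitochondrial protease read in the opposite direction from AUP1, overlaps 165 of its exon bases, and it rose by 0.50 ± 0.06 with #1 (edgeR adjusted p = 1.1e-05) and was at -0.01 and 0.15 with the other siRNAs (adjusted p = 0.942 and 0.071). LOXL3, a lysyl oxidase downstream of HTRA2, rose by 0.61 with #1 (edgeR adjusted p = 7.7e-05) and 0.31 with #2 (adjusted p = 0.0189). The kit marks strand, but whether strand entered the counting is not stated, so reads in the 165 shared bases could have gone to either gene. Beside OGFR, MRGBP rose with all 3 siRNAs (0.16, 0.18 and 0.22), the first lost at 0.08 with the GC trend removed, and COL9A3 fell with #1 and #2 (-0.21 and -0.26). OGFR-AS1, antisense to OGFR over 76 exon bases, was not analysed here. Beside MCRIP2, METTL26 and WDR90 had no call against scramble, and an antisense transcript, ENSG00000228201, that overlaps MCRIP2 by 2 bases rose with #1 (0.86 ± 0.31, edgeR adjusted p = 0.0398) from 0.09 CPM in scramble. Beside HIP1R, VPS37B, a subunit of a membrane-sorting complex, rose with #1 (0.53) and fell with #3 (-0.33), and CCDC62 had no call, nor did DQX1 beside AUP1. Calls lost without single libraries were those of MRGBP with #1 (scramble replicate 1 or 2, #1 replicate 1 or 2, 0.13 to 0.15) and with #2 (scramble replicate 1 or 2, #2 replicate 2 or 3, 0.15 to 0.17), COL9A3 with #1 (scramble replicate 2 or 3, #1 replicate 1, -0.19 to -0.18) and with #2 (scramble or #2 replicate 3, -0.23 to -0.22), LOXL3 with #2 (scramble replicate 1 or 2, 0.30 to 0.31) and ENSG00000228201 (any library of scramble or #3, #1 replicate 1 or 3, 0.74 to 0.99). ENSG00000228201 was not called by DESeq2 or with the GC trend removed (0.61), and COL9A3 with #2 was at -0.16 without that trend and not called. The same step brought calls in METTL26 with #1, from -0.21 to -0.46 (edgeR adjusted p = 1.9e-04), in COL9A3 with #3 (0.20) and in HTRA2 with #3 (0.20), and moved COL9A3 with #1 to -0.40.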

How the data were processed

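Reads were trimmed with Trim Galore and assigned with Salmon on hg38 by the authors, who deposited estimated counts for each Ensembl gene, not scaled between libraries. The transcriptome release and the use of strand are not given in the sources used here. Of the 63541 IDs, 58160 were in GENCODE release 44. Estimated counts were rounded, filtered with filterByExpr and normalised by TMM in edgeR 4.0.16 (R 4.3.3), and all 12 libraries entered 1 quasi-likelihood model with a coefficient for each group. P-values were adjusted by Benjamini-Hochberg over 21999 genes and called under 0.05. SE and 95% intervals are from the same fit, and CPM are TMM-scaled. The members and gene lists were chosen with earlier results of these data known. One marker gene that was looked up is not reported here.

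Named genes were the 4 members, their paralogs, the other 9 followed-up transcripts, genes overlapping or flanking a member, up to 3 rises and 3 falls per list called alike with all 3 siRNAs by mean change, and the 3 most correlated genes per member. On simulated counts for #1 against scramble (21490 genes), 86% of genes raised and 83.7% of genes lowered by 1 on the log2 scale were called, 42% and 28.6% at 0.5, and 0.0282% of unchanged genes. The simulation gave every gene the same spread, changed 200 genes and held no GC trend. These shares therefore check the procedure and do not carry over to the real libraries. Replicates of a group differed by more than counting error (chi-square per degree of freedom 12.5 to 59.9), so none was counted as a duplicate. The alternatives were RLE and upper quartile scaling, no filter, a filter at a mean of 1 CPM, DESeq2, limma-voom, a replicate block and each library left out. The trend alternatives, added after seeing the data, used lowess (span 0.3) of each library's log2 deviation on exon GC content, then on exon length, as offsets.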

Additional observations from a re-analysis of the deposited data

Results flagged for a closer look

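The effects of the siRNAs differed by the edgeR test of the difference in 9 cases. OGFR was higher with #1 than with #2 by 0.25 on the log2 scale and than with #3 by 0.39, and higher with #2 than with #3 by 0.14. MCRIP2 was higher with #1 by 0.42 and 0.45, AUP1 by 0.21 and 0.18, and HIP1R by 0.45 and 0.29, against #2 and #3 in that order. With the exon GC trend removed, the differences that still passed were those of OGFR from #3, with #1 (0.14) and #2 (0.17), and that of HIP1R between #1 and #2 (0.23). Groups of 3 libraries were not searched for outlying libraries.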

How the results depend on the processing

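Of 252 checks of the 12 differences between siRNAs, 231 kept their direction and their side of the threshold. With the exon GC trend removed, OGFR between #1 and #2 turned to -0.039 (-0.010 with the length trend removed too). MCRIP2 was then not called against #2 at 0.12 (0.14 with length) and, with the GC trend alone, against #3 at 0.18. AUP1 was not called at 0.053 (0.062) and 0.021 (0.037), nor HIP1R against #3 at 0.089 (0.11). OGFR between #2 and #3 lost its call without a filter (0.14) and, alone among these differences, under the replicate block (0.14), and it ranged from 0.10 to 0.16 with single libraries left out. MCRIP2 and AUP1 between these siRNAs, never called, ranged from -0.013 to 0.056 and from -0.062 to 0.0060. HIP1R for that pair ranged from -0.20 to -0.083, nearest 0 without #3 replicate 3.

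Against scramble, values that moved by more than the replicate SD were OGFR at 0.88, 0.92 and 0.75 with the GC trend removed (0.91, 0.92 and 0.74 with length), MCRIP2 at 0.78 and 0.66 (0.80 and 0.66), AUP1 at 0.19, 0.14 and 0.17 (0.22, 0.16 and 0.19) and HIP1R at 0.30 (0.29). Under upper quartile scaling OGFR was at 0.78 and 0.63 with #2 and #3, and AUP1 at 0.051 with #3. With single libraries left out, AUP1 ranged from 0.046 (without #2 replicate 1) to 0.10 with #2 and from 0.066 (without #3 replicate 3) to 0.13 with #3. HIP1R ranged from 0.068 (without #3 replicate 3) to 0.20 with #3, and with #2 from -0.044 to 0.042, above 0 without scramble replicate 1 or #1 replicate 2 or 3. The number of genes called between #2 and #3 ranged from 2215 to 3830 with single libraries left out (3421 with all, lowest without #2 replicate 2), and 3096 under the block. Same-numbered libraries did not deviate together (18 correlations between -0.066 and 0.085), so the numbers were not read as pairs.

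For other named genes, 1765 checks kept direction and call, 95 lost a call, 44 gained one and 40 changed sign. Sign changes of genes with no call under the setting, with #1 unless said, were as follows. The GC trend removed (with length in parentheses) gave TRABD -0.039 (-0.0054), TIMELESS -0.015 (-0.0042), HIP1 -0.0068 (-0.035), CCDC62 0.054 (0.082), DQX1 -0.028, WDR90 (-0.017), and with #2 HTRA2 0.047 (0.053) and ENSG00000228201 (0.049). HTRA2 with #2 was 0.014 by RLE scaling and DESeq2, AP1G2 was 0.0049 with the filter at 1 CPM, and UBE2G2 was -0.026 with #2 and -0.044 with #3 by upper quartile scaling and -0.019 with #3 at that filter. With single libraries left out, AP1G2 ranged from -0.25 to 0.12, PAN2 from -0.23 to 0.075, DQX1 from -0.22 to 0.20, CCDC62 from -0.17 to 0.0024, HIP1 from -0.0083 to 0.075 and TIMELESS from -0.0014 to 0.044. With #2 PAN2 ranged from -0.12 to 0.032, CCDC62 from -0.022 to 0.31, HTRA2 from -0.037 to 0.049, UBE2G2 from -0.0085 to 0.064 and WDR90 from -0.21 to 0.019, and with #3 UBE2G2 from -0.011 to 0.049.

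Each member had 789 counts or more in every library. The limits are 3 libraries a group, counts that pool all transcripts of a gene, and base composition, which cannot be told apart from other features of the #1 libraries. Likeness by Spearman correlation gave 0.79 or more for each of the 12 genes most like a member. The cause of the changes above was not tested.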
